A study of Mus musculus with 16 samples.

Results

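The change from day 3 to day 7 was described in cultured mouse bone marrow stromal cells labelled as knockouts (KO) of Zfp384, the gene of the architectural transcription factor Nmp4. The comparison uses 8 of the 16 libraries of the series, 4 KO libraries of day 3 (wells 5, 6, 7 and 8) and 4 of day 7 (wells 13, 14, 15 and 16), with all genes of the count table, and the 8 wild type (WT) libraries, grown the same way on each day, serve for contrast. In each WT group a pair of libraries shares a well number (1 and 1b, 10 and 10b), and the labels do not say whether these are separate wells. All were mesenchymal stem/progenitor cells (MSPCs) of C57BL/6 mice at passage 5 to 10, grown in multiwell plates. The day 3 wells held 10000 cells at seeding (25 per mm2) and stayed in Mesencult with its stimulatory supplement, which does not induce differentiation. The day 7 wells held 25000 cells at seeding (62 per mm2) in α-MEM with fetal bovine serum. From 48 hours these also received 5 µg/mL ascorbic acid, 10 nM dexamethasone (a synthetic glucocorticoid) and 10 mM glycerol 2-phosphate, a phosphate donor. Day, medium, supplements and seeding density changed together and cannot be told apart. The study design states 1 biological replicate per condition with 4 technical wells, so every p-value below measures only the spread between wells.

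A marrow stromal progenitor that becomes an osteoblast stops dividing, secretes a matrix made mostly of type I collagen, and then expresses the enzymes and acidic proteins that let calcium phosphate crystals grow in that matrix. Ascorbic acid is a cofactor of the collagen hydroxylases, and glucocorticoid is a standard part of osteogenic medium. A cell that secretes much protein relies on the chaperones of the endoplasmic reticulum (ER), which are induced through the unfolded protein response when the load of unfolded protein rises.

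Total counts in the 8 libraries ran from 31285188 to 41440013 reads on genes, and the labelled RNA integrity numbers were 10 at day 3 and 9.7 to 10 at day 7, where the protocol text gives a lower range. Values are CPM (reads of a gene scaled to a fixed library total) with TMM factors, changes are log2 fold changes of day 7 over day 3 with their standard error (SE), and calls were made with edgeR's quasi-likelihood test where the p-value after Benjamini-Hochberg adjustment was under 0.05. Zfp384 was at 93.5, 89.7, 92.3 and 90.6 CPM in the day 3 libraries and at 111, 116, 122 and 119 CPM at day 7 (log2 fold change 0.35, SE 0.04, adjusted p = 2.91e-10). The WT means were 81.9 CPM at day 3 and 88.1 CPM at day 7, so KO-labelled libraries held no less of this RNA, and the labels do not say which part of the gene is changed. The stromal markers Pdgfrb, Cd44 and Pdgfra were present in every KO library, while the pan-leukocyte gene Ptprc stayed at or below 0.296 CPM. Other macrophage and myeloid markers were present: of 16 measured, 8 had a mean of at least 1 CPM at day 3 and 6 at day 7. The 16 summed to 38.2 to 46.2 CPM at day 3 and 20.4 to 25.2 CPM at day 7. In bulk RNA, fewer cells of a type and less RNA per cell cannot be told apart.

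Of 13474 genes tested, 10771 (79.9%) were called, 5477 higher at day 7 (40.6%) and 5294 lower (39.3%). By at least 2-fold, 1682 were higher (12.5%) and 1185 lower (8.79%), and the median log2 fold change over all genes was 0.01. In 4867 genes (36.1%) every day 7 library lay above every day 3 library, and in 4806 (35.7%) every one lay below. The first principal component of log2(CPM + 1) held 95.4% of the variance and separated the days, and the second held 1.4%. With most genes called at this depth, the size of a change and its place in a gene list carry more than the call itself.

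**Figure D1:**
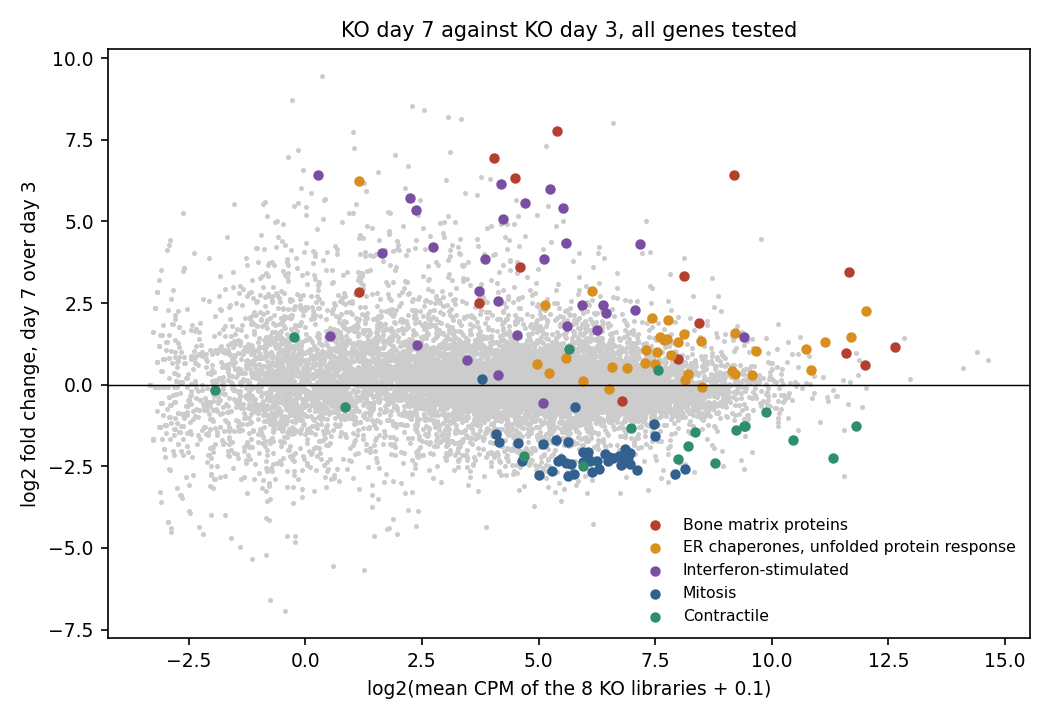
Log2 fold change of day 7 over day 3 in the libraries labelled KO (vertical axis) against log2 of the mean CPM of the 8 libraries plus 0.1 (horizontal axis); each grey point is a gene and 5 gene lists are coloured. Bone matrix, ER chaperone and interferon-stimulated genes lie mostly above 0, and mitosis and contractile genes mostly below.

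The top 10 genes by abundance made up 7.83 to 8.36% of all counts in the day 3 libraries and 12.11 to 12.85% at day 7. At day 7 they were Col1a1, Col1a2, Fn1, Col3a1, Sparc, Eef1a1, Hspa5, Spp1, Bgn and Hsp90b1, of which 7 encode matrix proteins and Hspa5 and Hsp90b1 encode ER chaperones. At day 3 the top 10 held Col1a1, Fn1, Col1a2, Eef1a1 and Col5a2 beside Thbs1, Flna, Vim, Actb and Acta2, the last 4 of which encode cytoskeletal proteins. Thbs1, which encodes the matricellular protein thrombospondin, was at 5206, 5509, 5191 and 5130 CPM at day 3, against 736, 770, 765 and 760 CPM at day 7. Thbs1 fell by 2.80 on the log2 scale (SE 0.04, adjusted p = 6.11e-29), with no overlap between the days.

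**Figure D2:**
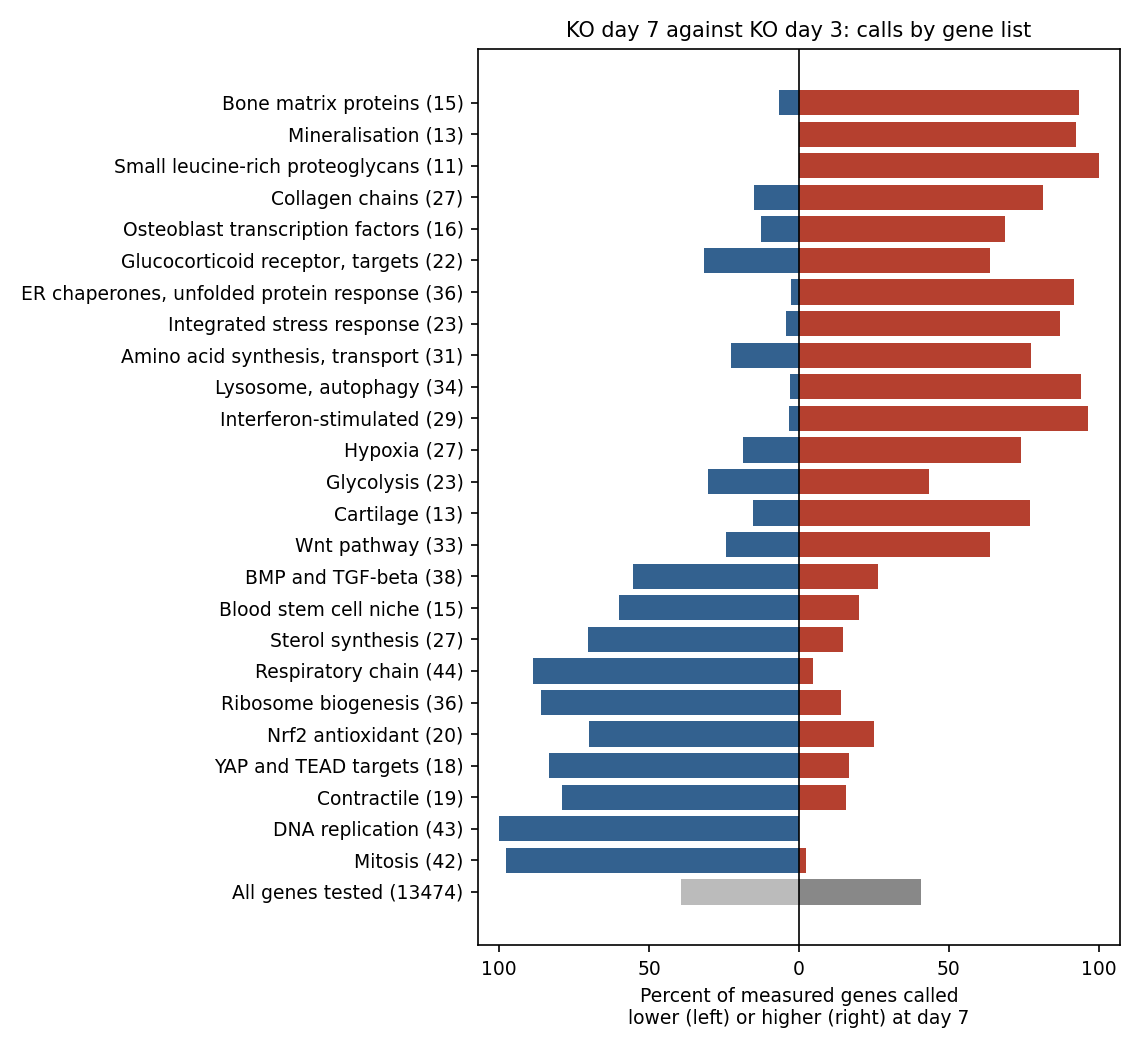
Percent of the measured genes of each list called higher (right) or lower (left) at day 7 in the libraries labelled KO, with the number measured in parentheses; the grey bar gives all 13474 genes tested. All 11 small leucine-rich proteoglycans were higher and all 43 replication genes lower, while all genes split nearly evenly, 40.6% higher and 39.3% lower.

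At the extremes, among called genes with a mean of at least 10 CPM on the higher day, the 10 highest log2 fold changes belonged to Thbs4, Bmp8a, Apod, H19, Bglap2, Car9, Bmp3, Bglap, Ibsp and Kcnh1. Of these 10, Ibsp, Bglap, Bglap2 and Thbs4 encode matrix proteins, and Bmp3 and Bmp8a encode secreted factors of the BMP family. Thbs4, a thrombospondin of tendon and muscle matrix, was at 0.0851, 0.0269, 0 and 0 CPM at day 3, while the day 7 wells held 11.3, 13.1, 10.7 and 10.5 CPM (log2 fold change 8.43, SE 0.30, adjusted p = 1.13e-20), and its day 3 wells held hardly any reads. Apod, a lipid carrier, rose from 0.163 CPM or less to 18.2 to 21.7 CPM, and the potassium channel gene Kcnh1 from 0.458 CPM or less to 24.9 to 27.9 CPM. The 10 lowest were Mcam, Angptl4, Nes, Rrm2, Iqgap3, Mybl2, Chst1, Txnip, Cemip and Tk1, of which Rrm2, Tk1 and Mybl2 serve DNA synthesis or cell cycle transcription. Cemip, a hyaluronan-degrading factor, was at 293, 299, 302 and 289 CPM at day 3 and 32.9, 34.4, 31.4 and 28.3 CPM at day 7 (log2 fold change -3.22, SE 0.04, adjusted p = 9.88e-30). Mybl2 fell by 3.27, Iqgap3, a scaffold of dividing cells, by 3.32, the sulfotransferase gene Chst1 by 3.25 and Txnip, which restrains glucose uptake, by 3.22, none with overlap between the days.

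The noncollagenous bone matrix genes were higher at day 7 in 14 of 15 measured cases, 11 of them by at least 2-fold, and Fbln1 alone was lower (log2 fold change -0.49). Their median log2 fold change was 2.85, against 0.01 over all genes. Ibsp, which encodes bone sialoprotein, a nucleator of mineral, was at 15.7, 11.2, 15.2 and 11.4 CPM at day 3, against 1291, 1207, 1153 and 972 CPM at day 7 (log2 fold change 6.43, SE 0.12, adjusted p = 2.10e-16). Spp1, which encodes osteopontin, was at 549, 543, 547 and 538 CPM and then at 5531, 4322, 6779 and 7058 CPM (log2 fold change 3.44, SE 0.14, adjusted p = 3.49e-11). The day 3 wells were tight for Spp1, while at day 7 library 14 was the lowest and library 16 the highest, and no day 7 well came near the day 3 range. Bglap and Bglap2, copies of the osteocalcin gene whose reads may be shared, rose from at most 0.482 and 0.471 CPM to 28.7 to 36.9 and 74.2 to 90.6 CPM. Dmp1, a matrix protein of maturing osteoblasts and osteocytes, rose from 0.568, 0.458, 0.723 and 0.424 CPM to 33.5, 38.9, 49.7 and 55.1 CPM (log2 fold change 6.34, SE 0.26, adjusted p = 2.94e-12). Of 6 measured osteocyte markers 4 were higher and 2 lower, with a summed level of 1194 to 1298 CPM at day 3 and 1004 to 1241 CPM at day 7. Phex rose to between 5.31 and 6.65 CPM, the matrix gene Tnc and the homeobox gene Irx5 fell by 0.30 and 0.33, and Sost, Mepe and Fgf23 were not analysed here.

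Of 13 measured genes of mineralisation and phosphate handling, 12 were higher and 0 lower (median 1.69). Alpl, the tissue-nonspecific alkaline phosphatase that frees phosphate, was at 142, 121, 123 and 98.2 CPM at day 3, while the day 7 wells held 897, 879, 737 and 687 CPM (log2 fold change 2.72, SE 0.11, adjusted p = 2.11e-11). Pth1r, the parathyroid hormone receptor, went from 13.4, 10.3, 10.8 and 8.29 CPM to 170, 178, 145 and 141 CPM (log2 fold change 3.88, SE 0.12, adjusted p = 2.95e-14). Within each day the wells kept a spread for both genes that was far smaller than the gap between days. Phospho1, a phosphatase of matrix vesicles, rose by 1.85 and Smpd3, a sphingomyelinase required for mineralisation, by 2.39. Enpp1, which makes the mineral inhibitor pyrophosphate, rose as well, from 20.9 to 23.2 CPM to 50.2 to 71.5 CPM (log2 fold change 1.48, SE 0.10, adjusted p = 6.62e-10). Slc20a2, a phosphate carrier, was the member not called (log2 fold change -0.01).

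The transcription factors of the osteoblast lineage held 11 of 16 called higher and 2 lower, with a median of 0.21. Runx2, required for osteoblast formation, was at 138, 138, 142 and 133 CPM at day 3 and 187, 182, 173 and 169 CPM at day 7 (log2 fold change 0.37, SE 0.04, adjusted p = 2.26e-09). Sp7, which encodes osterix and acts after Runx2, rose more, from 44.4, 41.0, 41.7 and 36.9 CPM to 153, 159, 141 and 126 CPM (log2 fold change 1.82, SE 0.07, adjusted p = 2.27e-15). Dlx3 went from 0.131 CPM or less to 5.02 to 6.25 CPM, and Mef2c rose by 2.05. Dlx5, a homeobox activator of this lineage, had 23.0, 23.3, 21.5 and 23.4 CPM at day 3 and 28.5, 29.2, 24.0 and 21.6 CPM at day 7, so its groups overlapped (log2 fold change 0.18, SE 0.07, adjusted p = 0.0138). Without library 13 or library 14 the call for Dlx5 was lost (adjusted p = 0.0791 and 0.0866). Msx2 and Msx1, homeobox genes of less mature cells, fell by 2.03 and by 1.00.

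Collagen chain genes were higher in 22 of 27 cases and lower in 4, with a median of 0.96. Of the chains among the top genes by abundance, Col1a1 rose by 0.77 (SE 0.05, adjusted p = 4.21e-14), Col1a2 by 1.01 and Col3a1 by 1.43, and Col5a2 fell by 0.11, a call lost with a mean of at least 1 CPM required. Col1a1 ran at 19967, 19184, 18132 and 17753 CPM at day 3, against 33710, 33589, 27999 and 32488 CPM at day 7, with library 15 the lowest of the later wells. Larger changes were seen in minor chains, with Col15a1 up from 1.08 to 1.48 CPM to 22.6 to 26.3 CPM and Col5a3 and Col11a2 up by 2.61 and 2.36. Col2a1, the main collagen of cartilage, fell by 1.14. The list of enzymes that hydroxylate, fold, cleave and crosslink collagen split, as 15 of 30 were higher, 11 lower and 4 not called (median 0.07). Lox, the crosslinking lysyl oxidase, had 1390, 1421, 1561 and 1552 CPM at day 3 and 1349, 1342, 1694 and 1591 CPM at day 7 (log2 fold change 0.01, SE 0.06, adjusted p = 0.848). Loxl2 of the same family fell by 1.33, the procollagen N-propeptidase gene Adamts2 rose by 1.54, and the prolyl hydroxylase gene P4ha1 rose by 0.64 (SE 0.07, adjusted p = 6.93e-08). Plod2, a lysyl hydroxylase, overlapped between the days (log2 fold change -0.12, SE 0.09, adjusted p = 0.216), and without library 15 it was called lower (log2 fold change -0.22, adjusted p = 0.00639).

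All 11 measured small leucine-rich proteoglycans, proteins that bind collagen fibrils, were higher at day 7, 8 by at least 2-fold, with a median of 3.02; 3 of them, Bgn, Ogn and Omd, also stand in the bone matrix list. Dcn (decorin) went from 2.87, 2.80, 2.48 and 2.77 CPM to 85.6, 81.5, 81.5 and 72.5 CPM (log2 fold change 4.87, SE 0.08, adjusted p = 4.12e-28). Fmod (fibromodulin) went from 84.7, 76.1, 81.0 and 62.7 CPM to 1640, 1764, 1683 and 1605 CPM (log2 fold change 4.46, SE 0.07, adjusted p = 8.25e-24). For both genes the day 7 wells stood well above every day 3 well. Among receptors and basement membrane genes, Itga10, a collagen-binding integrin, rose from 8.36 to 10.0 CPM to 283 to 335 CPM, and the laminin genes Lama2 and Lama4 rose by 4.04 and 4.03, while the fibronectin receptor gene Itga5 fell by 0.97. The collagenase gene Mmp13 rose from 16.3 to 18.8 CPM to 163 to 213 CPM.

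**Figure D3:**
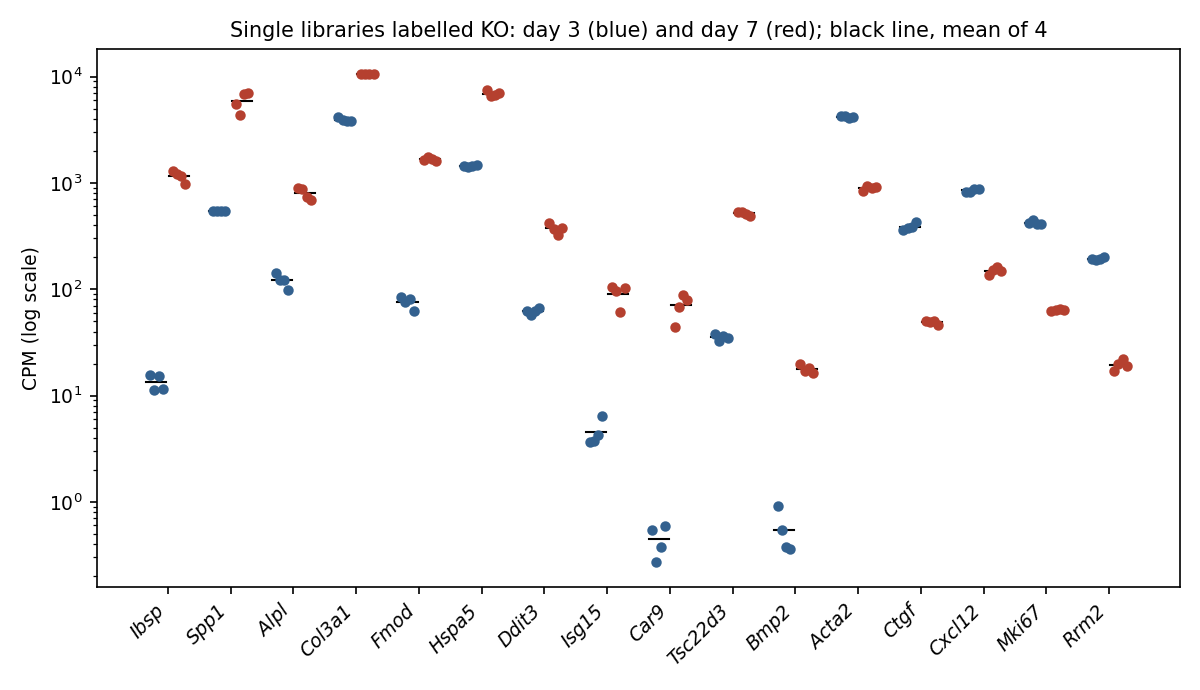
CPM on a log axis of 16 genes in each library labelled KO, day 3 in blue and day 7 in red, with the mean of each group as a black line. For every gene drawn the 4 values of each day lie apart from those of the other, and the day 7 wells scatter visibly for Spp1 (4322 to 7058), Isg15 (61.6 to 104) and Car9 (44.4 to 89.0).

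ER chaperone and unfolded protein response genes were higher in 33 of 36 cases and lower in 1 (Sec61b, a subunit of the translocation channel, log2 fold change -0.12, a call lost without library 8 or library 15), 19 by at least 2-fold, with a median of 1.02. Hspa5, which encodes BiP, the main ER chaperone, was at 1427, 1419, 1432 and 1457 CPM at day 3, while the day 7 wells held 7418, 6557, 6691 and 6983 CPM (log2 fold change 2.27, SE 0.04, adjusted p = 6.27e-28). Hsp90b1, the ER form of the Hsp90 chaperone, rose by 1.46 (SE 0.04, adjusted p = 1.51e-23), Sdf2l1 by 2.88, the co-chaperone gene Dnajb9 by 2.43 and the degradation gene Derl3 from 0.0979 CPM or less to 3.34 to 4.97 CPM. Of the sensors and regulators, Xbp1 rose by 1.37, Ern1 by 0.81 and Atf6 by 0.64. In the WT libraries 7 of these 36 genes were higher and 17 lower (32.3% and 34.9% of all genes), and Hspa5 had means of 825 and 807 CPM there. By the test of the difference the change was more positive in KO than in WT for 34 of the 36, against 4378 of all genes (32.5%).

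The promoters of 2 of these chaperone genes are shown because the ER stress element, CCAAT, 9 bases and CCACG, is the site through which the ATF6 branch is known to act. Sequences here and below are RefSeq promoters of build GRCm38.p6, 250 bases before to 50 after the start of the gene, in the direction of the gene, with matches in capitals. The element, on either strand, was found in 9 of 30 list members with a promoter entry (30.0%) in 16 of 10166 genes tested with an entry (0.157%) and in 0.137% of all 27025 promoters given. Its first base lies at position -65 in Hspa5, and Hsp90b1 holds matches at -212 and, on the opposite strand, at -107, counted from the start. A match is a description of the letters and not a measured site. The lists group genes by known function or control, so a high share here or below does not bear on the change at day 7.
Hspa5 (chr2:34771840-34772139, plus strand): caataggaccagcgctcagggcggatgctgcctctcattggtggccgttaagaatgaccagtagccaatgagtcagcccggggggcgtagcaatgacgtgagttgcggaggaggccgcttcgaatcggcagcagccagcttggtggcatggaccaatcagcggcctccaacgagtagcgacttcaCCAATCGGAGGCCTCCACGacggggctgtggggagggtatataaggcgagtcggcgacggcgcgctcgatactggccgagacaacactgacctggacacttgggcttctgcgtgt
Hsp90b1 (chr10:86705395-86705694, minus strand): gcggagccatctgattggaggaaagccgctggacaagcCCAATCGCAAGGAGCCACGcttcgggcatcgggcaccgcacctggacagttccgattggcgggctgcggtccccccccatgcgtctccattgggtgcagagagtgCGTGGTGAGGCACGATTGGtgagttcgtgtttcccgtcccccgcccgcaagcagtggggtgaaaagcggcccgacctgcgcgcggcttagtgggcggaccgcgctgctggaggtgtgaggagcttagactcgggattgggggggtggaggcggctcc

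Genes of the integrated stress response, which slows translation and induces the factor ATF4, were higher in 20 of 23 cases and lower in 1, with a median of 0.93. Ddit3, which encodes the factor CHOP, was at 62.9, 57.0, 63.0 and 66.7 CPM at day 3 and 419, 370, 326 and 375 CPM at day 7 (log2 fold change 2.58, SE 0.06, adjusted p = 6.69e-19). Trib3, a pseudokinase gene induced by CHOP, rose from 77.8 to 82.9 CPM to 276 to 320 CPM, Atf3 rose by 1.97, Nupr1 by 2.10 and Ppp1r15a, whose product restores translation, by 1.59. Atf4 itself rose by 0.62 (SE 0.03, adjusted p = 2.38e-17). Amino acid synthesis and transport genes were higher in 24 of 31 cases and lower in 7, with a median of 0.57, and changes were uneven among them. The glycine carrier gene Slc6a9 rose by 2.08 and the mitochondrial folate gene Aldh1l2 by 1.54, asparagine synthetase (Asns) by 0.57 and the cystine carrier gene Slc7a11 by 0.67, while the serine synthesis gene Psat1 fell by 0.28 and Phgdh of the same pathway rose by 0.36. The composite C/EBP-ATF element TGATGCAA, searched on both strands, was in the promoters of 6 of 21 integrated stress response genes (28.6%), of 4 of 23 amino acid genes (17.4%) of 0.738% of genes tested and of 1.03% of all promoters. The promoter of Nupr1 holds it at -110 on the opposite strand. It is shown because Nupr1 rose by 2.10 between the group means, and its 4 day 7 wells lay between 152 and 163 CPM.
Nupr1 (chr7:126625421-126625720, minus strand): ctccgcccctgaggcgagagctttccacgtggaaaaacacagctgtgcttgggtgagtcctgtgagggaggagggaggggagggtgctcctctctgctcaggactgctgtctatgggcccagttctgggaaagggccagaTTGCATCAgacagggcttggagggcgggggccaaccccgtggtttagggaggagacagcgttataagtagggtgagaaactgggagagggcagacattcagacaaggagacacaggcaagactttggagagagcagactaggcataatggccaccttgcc

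Interferon-stimulated and antigen presentation genes were higher in 28 of 29 cases, 26 by at least 2-fold, with a median of 2.86; Irf1, a transcription factor of the pathway, was lower (log2 fold change -0.57). Isg15, a ubiquitin-like modifier, was at 3.63, 3.77, 4.27 and 6.43 CPM at day 3, against 104, 96.1, 61.6 and 102 CPM at day 7 (log2 fold change 4.34, SE 0.21, adjusted p = 1.67e-10). Usp18, which removes Isg15 from proteins, was at 0.369, 0.566, 0.157 and 0.947 CPM and then at 41.4, 37.4, 24.9 and 40.2 CPM (log2 fold change 6.14, SE 0.27, adjusted p = 1.27e-11). Ifi44 had 0.647 to 2.51 CPM at day 3 and 60.1 to 85.3 CPM at day 7, with library 8 the highest of day 3. The antiviral gene Mx1 had 3 counts over the day 3 group and 315 over the day 7 group, a ratio of 98.8 with a 95% counting interval of 33.5 to 482. The class I antigen gene H2-K1 rose by 2.30. In WT 26 of the 29 were higher as well, with a median of 0.97, and the change was more positive in KO for 27. Macrophage and myeloid markers mostly fell over the same interval (1 of 16 higher, 14 lower), and their part in the result was not tested. Their summed level was 38.2 to 46.2 CPM in the day 3 libraries and 20.4 to 25.2 CPM at day 7, and the single member called higher was Fcer1g.

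The core of the interferon-stimulated response element, GAAANNGAAA on either strand, is shown because so many listed genes rose together; this motif was added after the values were seen. It was in the promoters of 12 of 24 listed genes with an entry (50%), of 3.64% of genes tested and of 3.99% of all promoters. The list was made of genes known as interferon-stimulated, so a high share was likely from the start. Isg15 holds 3 overlapping matches that begin between -78 and -66, and Oas1a holds 2 that begin between -20 and -14. Oas1a, which senses double-stranded RNA, was at 0.114, 0.0539, 0.0943 and 0.457 CPM at day 3, while the day 7 wells held 11.7, 7.92, 6.19 and 10.7 CPM.
Isg15 (chr4:156200769-156201068, minus strand): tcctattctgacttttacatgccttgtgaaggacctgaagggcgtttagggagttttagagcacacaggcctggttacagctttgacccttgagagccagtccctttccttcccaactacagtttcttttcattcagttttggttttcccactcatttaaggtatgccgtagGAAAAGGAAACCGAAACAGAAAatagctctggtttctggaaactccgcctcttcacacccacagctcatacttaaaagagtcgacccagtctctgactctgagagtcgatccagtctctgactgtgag
Oas1a (chr5:120907476-120907775, minus strand): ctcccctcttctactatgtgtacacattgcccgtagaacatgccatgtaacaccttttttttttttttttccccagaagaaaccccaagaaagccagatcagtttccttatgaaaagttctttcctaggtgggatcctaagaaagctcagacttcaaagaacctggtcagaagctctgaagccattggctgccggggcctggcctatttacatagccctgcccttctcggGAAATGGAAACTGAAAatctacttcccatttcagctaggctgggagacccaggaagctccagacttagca

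Hypoxia genes were higher in 20 of 27 cases and lower in 5, with a median of 0.59, and among the 27 the highest log2 fold change was that of Car9, a carbonic anhydrase that is a standard target of hypoxia-inducible factors. Car9 was at 0.539, 0.269, 0.377 and 0.588 CPM at day 3 and 44.4, 68.1, 89.0 and 79.7 CPM at day 7 (log2 fold change 7.31, SE 0.30, adjusted p = 2.27e-11). Ndrg1 rose by 2.51, Vegfa, the angiogenic growth factor gene, by 1.28 and the prolyl hydroxylase gene Egln3, itself a target, by 1.56 (SE 0.23, adjusted p = 2.58e-05). Hif1a RNA fell by 0.16 (SE 0.04, adjusted p = 0.000165), and Angptl4, a lipase inhibitor that hypoxia and fatty acids induce, fell by 4.27 from 134 to 140 CPM to 6.52 to 8.44 CPM. Glycolysis genes split, with 10 of 23 higher and 7 lower (median -0.05). Ldha, lactate dehydrogenase, was at 1435, 1427, 1492 and 1495 CPM at day 3, against 668, 827, 998 and 977 CPM at day 7 (log2 fold change -0.75, SE 0.09, adjusted p = 2.50e-06), and Aldoc rose by 3.16. The hypoxia core ACGTG, searched on both strands, was in 16 of 22 listed promoters (72.7%), in 28.8% of those of genes tested and in 21.8% of all promoters; Car9, shown as the member with the highest change, holds it at -18 on the opposite strand.
Car9 (chr4:43506776-43507075, plus strand): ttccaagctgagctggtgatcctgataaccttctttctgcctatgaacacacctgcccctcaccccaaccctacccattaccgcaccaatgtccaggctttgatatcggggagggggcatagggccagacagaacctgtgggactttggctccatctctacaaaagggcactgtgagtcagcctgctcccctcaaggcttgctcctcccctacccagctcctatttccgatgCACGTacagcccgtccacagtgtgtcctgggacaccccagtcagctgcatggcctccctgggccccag

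The 4 day 7 wells differed among themselves in the hypoxia and interferon lists. Over 26 hypoxia genes with a mean of at least 1 CPM, library 15 was the highest well for 21 and library 13 the lowest for 18, and the median log2 deviation from the mean of the wells was -0.28 in library 13, -0.12 in 14, 0.22 in 15 and 0.13 in 16. Glycolysis genes showed the same order, with library 13 the lowest for 19 of 22. For the 29 interferon-stimulated genes library 15 was the lowest for 28, with median deviations of 0.13, 0.03, -0.31 and 0.14 in libraries 13 to 16. Over 12054 genes of at least 1 CPM the median deviations lay between -0.01 and 0.01, and library 15 was the lowest well for 3869. H19, an imprinted noncoding RNA, followed the order of the hypoxia genes, with 126, 160, 252 and 226 CPM at day 7 against 0.539, 1.16, 0.597 and 0.620 CPM at day 3 (log2 fold change 8.0, SE 0.31, adjusted p = 1.63e-11). At day 3 library 8 was the highest well for 19 of 22 interferon-stimulated genes of at least 1 CPM. The chi-square per degree of freedom between day 7 wells was 17.88 for libraries 15 and 13, 16.47 for 15 and 14, 7.96 for 15 and 16, and 7.03 to 9.17 for the pairs without library 15, where pairs of day 3 wells had 2.70 to 7.56. Without library 15 the counts of called genes were 5376 higher and 5246 lower.

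**Figure D4:**
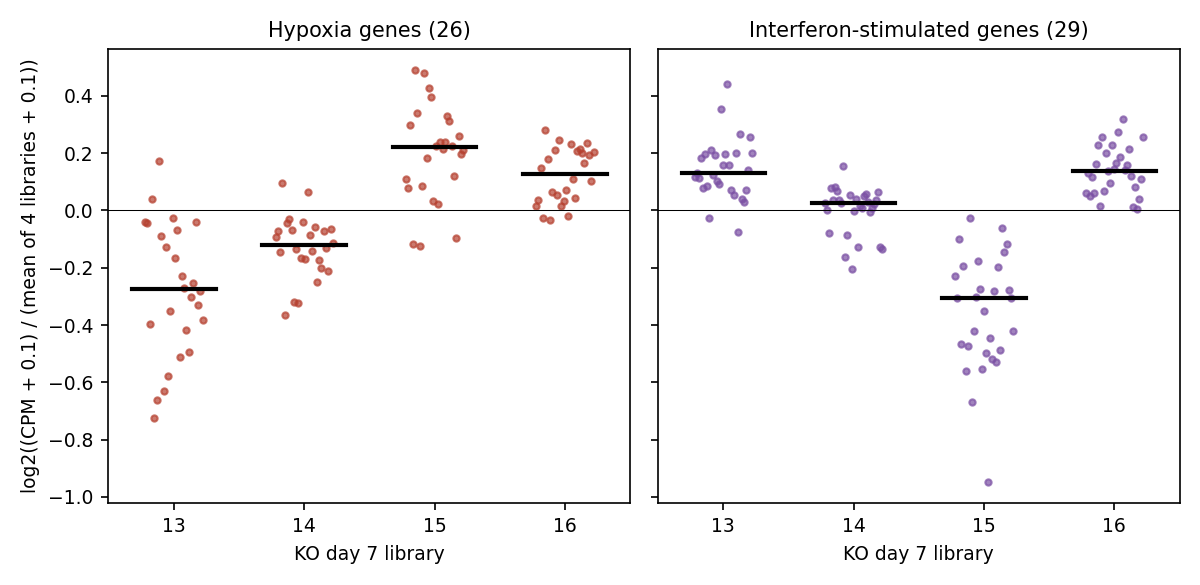
Log2 of each day 7 library's CPM over the mean of the 4 libraries (0.1 CPM added to both) for 26 hypoxia genes (left) and 29 interferon-stimulated genes (right); each point is a gene and the black bar is the median. Libraries have no order: hypoxia medians run from -0.28 in library 13 to 0.22 in library 15, and the interferon median is -0.31 in library 15 and 0.13 in library 13.

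Genes of cell division fell together. All 43 measured genes of DNA replication and nucleotide synthesis were lower at day 7, 38 by at least 2-fold, with a median of -1.80, and 41 of 42 mitosis genes were lower, 40 by at least 2-fold, with a median of -2.26. Mki67, a proliferation marker, was at 417, 450, 414 and 407 CPM at day 3, while the day 7 wells held 62.1, 63.3, 65.4 and 63.6 CPM. Mki67 fell by 2.73 (SE 0.04, adjusted p = 5.74e-29). Rrm2, the regulated subunit of ribonucleotide reductase, fell from 194, 190, 192 and 200 CPM to 17.1, 19.6, 21.9 and 19.1 CPM (log2 fold change -3.32, SE 0.05, adjusted p = 1.73e-29). The helicase gene Mcm5 fell by 2.82, Tk1 by 3.19, the mitotic cyclin gene Ccnb1 by 2.21 and the sliding clamp gene Pcna by 1.04, and Pttg1 (securin) was the member called higher (log2 fold change 0.17). Among inhibitors of the cycle the changes were mixed. Cdkn1a, which encodes p21, rose from 20.9, 17.9, 20.6 and 18.2 CPM to 115, 109, 113 and 110 CPM (log2 fold change 2.53, SE 0.04, adjusted p = 5.80e-28), and the p53 target Trp53inp1 rose by 3.42, while Trp53 itself fell by 0.47 and cyclin D1 (Ccnd1) by 0.53. Cdkn2a, an inhibitor gene of senescent cells, had 165 to 180 CPM at day 3 and 171 to 199 CPM at day 7, overlapping ranges (log2 fold change 0.10, adjusted p = 0.0251), a call that was lost in 7 of 15 alternatives.

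Top2a, the DNA topoisomerase of dividing cells, stood at 475, 477, 493 and 491 CPM at day 3 and fell to 78.2, 77.8, 87.2 and 82.9 CPM (log2 fold change -2.57, SE 0.04, adjusted p = 3.97e-29). Its promoter is shown for the cell cycle homology region TTTGAA, a motif through which mitotic genes are known to be repressed in resting cells and which was added after the values were seen. On either strand it was in the promoters of 22 of 33 mitosis genes with an entry (66.7%), of 5 of 33 replication genes (15.2%), of 13.9% of genes tested and of 20.2% of all promoters. Top2a holds it at -179 and, on the opposite strand, at -23.
Top2a (chr11:99024140-99024439, minus strand): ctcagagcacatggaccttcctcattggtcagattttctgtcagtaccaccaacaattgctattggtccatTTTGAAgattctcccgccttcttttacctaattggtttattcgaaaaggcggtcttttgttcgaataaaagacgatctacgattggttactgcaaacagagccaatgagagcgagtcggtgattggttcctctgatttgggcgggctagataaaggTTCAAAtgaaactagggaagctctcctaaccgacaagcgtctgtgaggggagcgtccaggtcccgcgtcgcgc

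Of 19 smooth muscle contractile genes 15 were lower, 13 by at least 2-fold, and 3 higher (Myocd, Mylk and Smtn), with a median of -1.32. Acta2, smooth muscle actin, was at 4210, 4275, 4113 and 4151 CPM at day 3 and 830, 931, 903 and 905 CPM at day 7. Acta2 fell by 2.23 (SE 0.04, adjusted p = 6.08e-28). Tagln fell by 2.41, Cnn1 by 2.49, Flna by 1.25 and Actb by 1.39, and the transcription factor gene Srf, which drives many of them, fell by 1.32. Of 18 YAP, TAZ and TEAD genes and targets, read-outs of cell spreading and tension, 15 were lower and 3 higher, with a median of -0.98. Ctgf was at 360, 373, 381 and 430 CPM and then at 50.2, 49.5, 50.8 and 46.5 CPM (log2 fold change -2.97, SE 0.05, adjusted p = 6.41e-29), and Cyr61 fell by 2.46. Seeding density differed between the days, and its part in these changes cannot be told apart.

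Genes of the glucocorticoid receptor list, the receptor gene and its targets, were higher in 14 of 22 cases and lower in 7, with a median of 1.29; dexamethasone was in the day 7 medium only. Tsc22d3, which encodes the anti-inflammatory protein GILZ, was at 37.7, 32.3, 36.6 and 34.7 CPM at day 3, against 534, 532, 514 and 493 CPM at day 7 (log2 fold change 3.87, SE 0.04, adjusted p = 7.72e-32). Fkbp5, a co-chaperone of the receptor, rose by 1.70, the clock gene Per1 by 1.88 and Zbtb16 from 0.346 CPM or less to 14.8 to 16.6 CPM. Hif3a had 3 counts over the day 3 group and 1370 over the day 7 group, a ratio of 430 with a 95% counting interval of 147 to 2090. The receptor gene Nr3c1 fell by 0.15 (SE 0.04, adjusted p = 0.00253), and its groups overlapped. The targets of this list named here are members that rose, and none of the 7 lower members fell by 2-fold. Ptgs2, the inducible prostaglandin synthase gene, is outside this list and fell from 97.9 to 101 CPM to 10.2 to 14.5 CPM. The part of dexamethasone in these changes was not tested.

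Ligands and receptors of the main bone pathways changed member by member. Of 38 BMP and TGF-beta genes 10 were higher and 21 lower, with a median of -0.23. Bmp2, an inducer of bone, rose from 0.908, 0.539, 0.377 and 0.359 CPM to 19.8, 17.0, 18.3 and 16.2 CPM (log2 fold change 5.00, SE 0.22, adjusted p = 1.30e-14), and Bmp3 and Bmp8a rose from 0.215 CPM or less to 15.3 to 18.9 and 14.5 to 17.9 CPM. Bmp4 fell by 0.31, the BMP target Id1 by 1.57 and the activin subunit gene Inhba by 2.20, while Tgfb1 rose by 1.91. Of 33 Wnt genes 21 were higher and 8 lower, with a median of 0.64. The feedback target Axin2 rose by 1.23 and Wnt5a by 1.04. The secreted inhibitor gene Wif1 rose by 3.35 at a low level, from a mean of 0.110 CPM (15 counts over the day 3 group) to 1.16 CPM. Another inhibitor gene, Sfrp2, fell by 1.86. Igf2 rose from 1.33, 1.89, 1.67 and 2.51 CPM to 37.4, 39.1, 42.0 and 38.7 CPM (log2 fold change 4.42, SE 0.09, adjusted p = 1.49e-26), Igf1 fell by 0.74, and Pappa, a protease that frees IGF from binding proteins, fell by 2.80. Of 15 factors of the blood stem cell niche and of osteoclast control 3 were higher and 9 lower; Cxcl12, the chemokine that holds stem cells in marrow, went from 826, 823, 870 and 874 CPM to 136, 152, 162 and 148 CPM and fell by 2.50 (SE 0.05, adjusted p = 2.65e-27). Kitl rose by 0.19, Csf1 fell by 0.70 and the decoy receptor gene Tnfrsf11b (osteoprotegerin) by 0.68, while Tnfsf11 (RANKL) had 3.52 to 3.96 and 3.61 to 4.44 CPM (log2 fold change 0.11, SE 0.11, adjusted p = 0.381).

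In metabolism and turnover, 39 of 44 nuclear-encoded respiratory chain genes were lower and 2 higher, by small amounts (median -0.37), with the ATP synthase gene Atp5b falling by 0.87. Of 36 ribosome biogenesis genes 31 were lower (median -0.38), and Myc fell by 0.33. Sterol and fatty acid synthesis genes were lower in 19 of 27 cases (median -0.44), and the desaturase gene Scd1 rose by 0.30. Without library 15 the sterol genes called higher numbered 7, against 4 with it. Nrf2 antioxidant genes were lower in 14 of 20 cases; Nqo1 fell by 1.75, while Hmox1 rose by 0.90 and the regulator gene Nfe2l2 by 1.00. Lysosome and autophagy genes were higher in 32 of 34 cases (median 0.94). Ctsk, the collagen-cleaving cathepsin, was at 7.15, 6.60, 6.38 and 6.56 CPM at day 3, while the day 7 wells held 117, 108, 105 and 107 CPM (log2 fold change 4.03, SE 0.06, adjusted p = 1.04e-29), and the autophagy receptor gene Sqstm1 rose by 1.39.

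Markers of other lineages were read for the labelled cell type. Of 20 stromal progenitor markers 8 were higher and 10 lower, near the shares over all genes (40.6% higher and 39.3% lower). Pdgfrb rose by 1.03 and Pdgfra by 0.83. Cd44 fell by 0.87, Mcam from 26.0 to 29.0 CPM to 1.18 to 1.54 CPM and Nes from 51.8 to 58.9 CPM to 3.95 to 4.38 CPM. Cartilage genes were higher in 10 of 13 cases and lower in 2, both by at least 2-fold (median 1.47). The cartilage factor gene Sox9 rose by 0.89 and Comp by 3.79, and Acan rose from 1.76 to 2.20 CPM to 5.11 to 6.29 CPM. Col2a1, the main cartilage collagen, fell by 1.14, from a mean of 35.4 CPM to 16.1 CPM. With a mean of at least 1 CPM required, 6 cartilage genes were called higher. Of 18 fat cell regulators and lipid droplet genes 11 were higher and 4 lower (median 0.22), with a summed level of 654 to 672 CPM at day 3 and 574 to 626 CPM at day 7. Pparg had 10.1 to 10.9 CPM at day 3 and 10.9 to 12.4 CPM at day 7 (log2 fold change 0.18, adjusted p = 0.0131). Klf15 rose from 1.16 CPM or less to 43.6 to 45.6 CPM, Lpl by 2.98 and Plin4 by 4.47. Fabp5 fell by 1.25, Cd36 by 2.43, Lipe by 0.41 and Angptl4 by 4.27, and Plin1, Cidec and Cfd were not analysed here. Osteoclast markers were higher in 6 of 6 measured cases, led by Ctsk and Acp5, but Acp5 reached 0.703 to 1.18 CPM and Calcr, Dcstamp, Ocstamp and Oscar were not analysed here. Of 3 measured endothelial markers 2 were higher and 1 lower: Kdr rose by 2.68 to 12.8 to 13.9 CPM and Vwf by 3.13, and Egfl7 fell by 0.45 with overlapping wells, while Pecam1, Cdh5, Tek, Tie1 and Erg were not analysed here. Serpina3m and Grhl3 had 0 counts in all 4 day 3 libraries and 341 and 205 counts over the day 7 group, that is, at least 107-fold and at least 64.3-fold higher, with 3 counts in the day 3 group taken as the floor. Chromosome medians ran from -0.06 (chromosome 7) to 0.11 (chromosome 17) among the autosomes and X.

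The same interval was read in the WT libraries, where 4356 genes were higher (32.3%) and 4707 lower (34.9%). Of the 1682 genes at least 2-fold higher in KO, 1102 (65.5%) were called higher in WT and 182 (10.8%) lower; of the 1185 at least 2-fold lower in KO, 881 (74.3%) were lower in WT and 100 (8.40%) higher. Genes at least 2-fold higher in both numbered 483, which is 28.7% of the KO genes and 60.9% of the WT genes, and those at least 2-fold lower in both numbered 239, or 20.2% and 46.9%. The test of the difference called 8889 genes (66.0%), 4378 with a more positive change in KO (32.5%) and 4511 with a more negative change (33.5%). Libraries labelled KO and WT are 1 biological replicate each, so this difference cannot be told apart from one between cultures. Mitosis genes fell in both, with a median of -2.26 in KO and -0.81 in WT, and the change was more negative in KO for 41 of 42. Of 13 mineralisation genes 6 were higher in WT, each by at least 2-fold, and 6 lower, and Alpl and Pth1r rose there by 1.60 and 3.85. Contractile genes had medians of -1.32 and -0.06, with Tagln at 416 and 465 CPM in WT (means of day 3 and day 7) where KO had 740 and 139 CPM. In WT 8 of the 19 contractile genes were higher and 8 lower, and Acta2 fell there by 0.63, from a mean of 4327 CPM to 2796 CPM. Genes of the glucocorticoid receptor list rose in 14 of 22 cases in KO and in 15 in WT, with Per1 at a log2 fold change of 1.88 in KO and 1.92 in WT.

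Some genes moved in opposite directions: 844 rose in KO and fell in WT, and 706 fell in KO and rose in WT. Trib3 rose by 1.90 in KO and fell by 1.60 in WT, and Plin4, a lipid droplet gene, rose by 4.47 and fell by 1.76. Col10a1, the collagen of hypertrophic cartilage, had means of 2.39 and 9.73 CPM in KO and 12.7 and 1.08 CPM in WT. Pappa had means of 112 and 16.2 CPM in KO and 6.42 and 40.2 CPM in WT, and the imprinted gene Peg3 had 20.2 and 3.71 CPM in KO and 35.4 and 83.4 CPM in WT. Shank2, which encodes a scaffold protein known from synapses, had 7.26 and 0.300 CPM in KO and 6.02 and 13.9 CPM in WT, and the factor gene Klf4 had 38.4 and 140.4 CPM in KO and 35.9 and 15.6 CPM in WT. The day 3 and day 7 values in KO did not overlap for any of these genes.

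**Figure D5:**
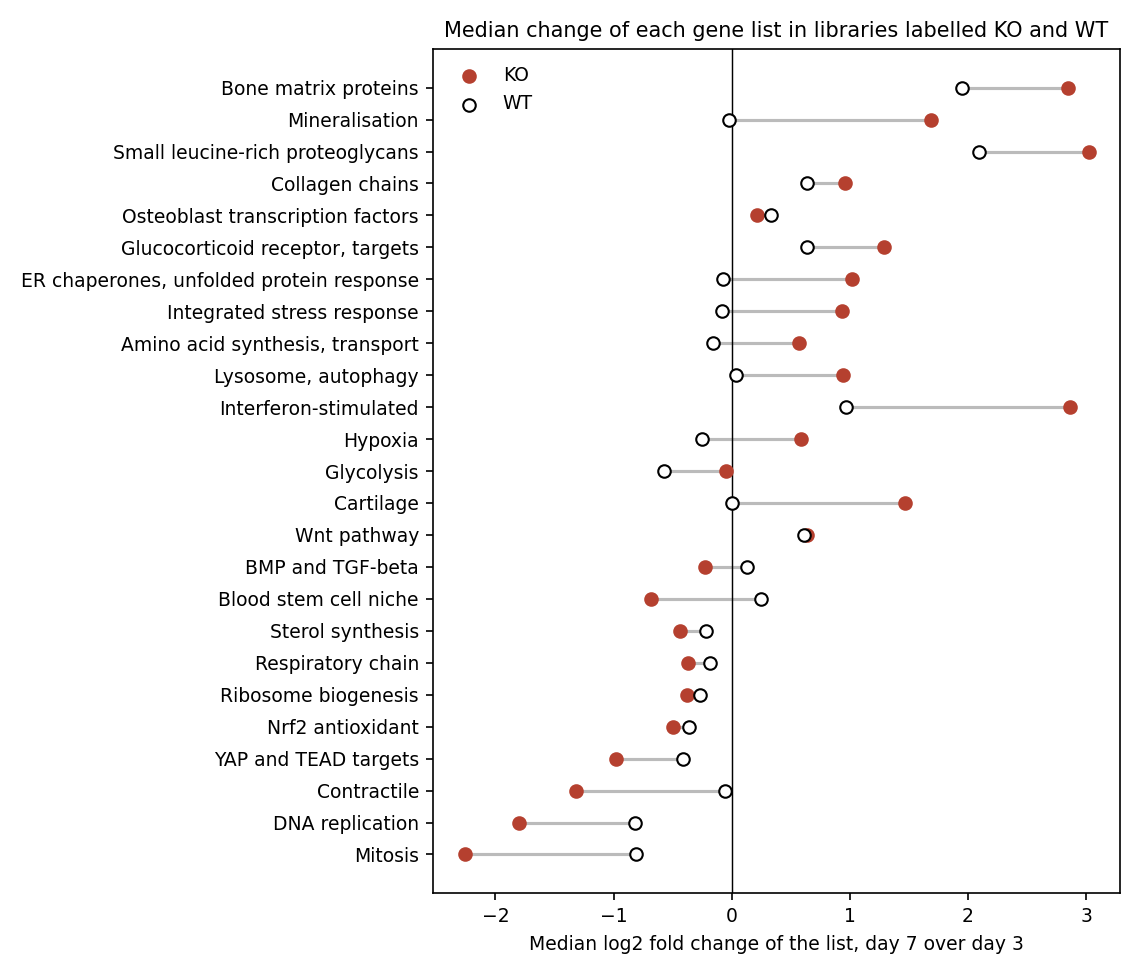
Median log2 fold change of day 7 over day 3 for each gene list in the libraries labelled KO (filled) and WT (open), joined by a grey line. The medians lie far apart for interferon-stimulated (2.86 and 0.97), mineralisation (1.69 and -0.02) and mitosis genes (-2.26 and -0.81), and close together for Wnt genes (0.64 and 0.61).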

How the data were processed

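The 16 libraries of cultured cells fall into 4 groups of 4. WT libraries 1 and 1b, and 10 and 10b, may be repeats of a well. Per the submitters' processing notes, the authors aligned reads with STAR 2.4.2a to mm10, counted them with featureCounts and used edgeR; which annotation release they counted on is not given here. The authors deposited raw counts per gene, with genes of low count already left out (the lowest sum over the libraries was 105), and scaled columns, a signal scaled by an effective library size, per the file headers; these scaled columns were used only to try another scaling.

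Counts were scaled by TMM and fitted in edgeR 4.0.16 (R 4.3.3) with robust quasi-likelihood over all 16 libraries as 4 group means, and p-values were adjusted over 13474 genes by the Benjamini-Hochberg method; filterByExpr removed 0 genes. Depth was 31285188 to 41440013 counts in the KO libraries, and the common coefficient of variation was 4.25%. DESeq2 1.42.0 was an alternative. Promoters were matched by symbol for 10166 genes. Date-like symbols (22) were not named. Genes were named by rule: the extremes in fold change, the most abundant, up to 4 members per list with the largest change, listed anchors, opposite changes in WT, and genes at 0 on one day. Cd36, Fabp5, Fbln1, Irf1, Irx5, Lipe, Msx1, Mylk, Myocd, Ogn, Pttg1, Sec61b, Slc20a2, Smtn and Tnc fall outside it and were chosen after their values were seen. The members and lists were chosen with earlier results of these data known. Intervals and floors cover counting error only. Some genes are not reported here.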

Additional observations from a re-analysis of the deposited data

Results flagged for a closer look

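Within groups of 4 wells, 21 of 396 tested sets of values of named genes (5.30%) held a well whose gap to the nearest of the others exceeded the 95% critical value of Dixon's test as a share of the whole range; chance gives about 1 in 20. Library 6 of day 3 stood highest for H19 at 1.16 CPM (others 0.539 to 0.620) and Peg3 at 22.01 CPM (others 19.4 to 19.8). Library 6 stood lowest for Ndrg1 at 48.3 CPM (others 51.4 to 51.6). Library 7 of day 3 stood highest for Asns at 256 CPM (others 248 to 249) and Slc7a11 at 23.6 CPM (others 21.3 to 21.7). Library 7 stood lowest for Chst1 at 21.3 CPM (others 23.8 to 24.3) and Mybl2 at 70.6 CPM (others 75.0 to 75.5). Library 8 of day 3 stood highest for Ccnd1 at 539 CPM (others 504 to 508), Cebpa at 8.03 CPM (others 7.25 to 7.38), Ifi44 at 2.51 CPM (others 0.647 to 0.851), Ncl at 1508 CPM (others 1417 to 1421), Sec61b at 103 CPM (others 91.8 to 93.1) and Tnfrsf11b at 60.4 CPM (others 57.7 to 58.2). Library 8 stood lowest for Acan at 1.76 CPM (others 2.13 to 2.20). Library 13 of day 7 stood highest for Myc at 176 CPM (others 164 to 166). Library 13 stood lowest for Actb at 1539 CPM (others 1674 to 1691). Library 14 of day 7 stood highest for Sfrp2 at 106 CPM (others 93.9 to 95.8). Library 15 of day 7 stood highest for Mef2c at 61.3 CPM (others 49.9 to 50.7) and Ogn at 399.9 CPM (others 288 to 306). Library 15 stood lowest for Lipe at 5.12 CPM (others 6.23 to 6.36). Library 16 of day 7 stood lowest for Acp5 at 0.703 CPM (others 1.15 to 1.18). None of these genes changes its direction without the well concerned.

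The change from day 3 to day 7 differed between the libraries labelled KO and WT for 8889 genes in edgeR's quasi-likelihood test of the difference. The difference (log2 fold change in KO minus that in WT) is given for some named genes called in opposite directions in KO and WT. It is also given for Hspa5 and for 5 of the 10 genes with the highest fold change in KO. The rules that named genes use the size of the change or of the difference, so large values follow in part from that choice. The others of the 8889 are not listed. H19 and Bmp3, also among these 10, were not called in this edgeR test (adjusted p = 0.616 and 0.789). Their WT means at day 3 and day 7 were 0.00677 and 0.0408 CPM for H19 and 0 and 0.0553 CPM for Bmp3. By edgeR, the change was more positive in KO for Col10a1 5.59 (SE 0.24, adjusted p = 8.27e-15, KO 2.04, WT -3.55) and Cyb5r2 6.82 (SE 1.20, adjusted p = 1.89e-05, KO 2.60, WT -4.22). The same held for Gprc5c 4.81 (SE 0.09, adjusted p = 2.68e-25, KO 4.51, WT -0.30) and Hspa5 2.30 (SE 0.05, adjusted p = 6.53e-24, KO 2.27, WT -0.03), by edgeR. The same held for Klf4 3.07 (SE 0.07, adjusted p = 3.28e-24, KO 1.87, WT -1.21) and Plin4 6.23 (SE 0.18, adjusted p = 6.36e-22, KO 4.47, WT -1.76), by edgeR. The same held for Trib3 3.50 (SE 0.10, adjusted p = 8.48e-22, KO 1.90, WT -1.60) and Apod 5.64 (SE 0.38, adjusted p = 2.13e-13, KO 8.14, WT 2.50), by edgeR. Bglap2 differed by 6.40 (SE 0.23, adjusted p = 8.38e-19, KO 7.78, WT 1.37) and Bmp8a by 5.66 (SE 0.37, adjusted p = 8.92e-14, KO 8.21, WT 2.55), by edgeR. Car9 differed by 7.57 (SE 0.97, adjusted p = 1.11e-05, KO 7.31, WT -0.25) and Thbs4 by 8.04 (SE 1.45, adjusted p = 1.96e-05, KO 8.43, WT 0.39), by edgeR. By edgeR, the change was more negative in KO for Ankrd1 -4.66 (SE 0.25, adjusted p = 1.07e-14, KO -2.86, WT 1.80) and Pappa -5.44 (SE 0.12, adjusted p = 5.13e-20, KO -2.80, WT 2.64). The same held for Peg3 -3.68 (SE 0.09, adjusted p = 1.18e-23, KO -2.45, WT 1.23) and Sfrp2 -2.40 (SE 0.06, adjusted p = 1.22e-23, KO -1.86, WT 0.54), by edgeR. The same held for Shank2 -5.79 (SE 0.17, adjusted p = 1.18e-21, KO -4.58, WT 1.21) and Tagln -2.57 (SE 0.07, adjusted p = 6.37e-21, KO -2.41, WT 0.16), by edgeR. The same held for Txnip -3.49 (SE 0.09, adjusted p = 5.21e-23, KO -3.22, WT 0.27), by edgeR. Genotype and culture cannot be told apart, with 1 biological replicate per condition.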

How the results depend on the processing

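Against a 1.5-fold change in place of a change of 0 (glmTreat), 2318 genes were called higher and 1846 lower. Under the other settings tried (RLE size factors, total counts, the authors' effective sizes, no filter, a mean of at least 1 CPM, the KO libraries alone, DESeq2) the counts were 5177 to 5559 higher and 4707 to 5576 lower, and the share of calls that were higher was 48.1 to 53.4%. Leaving out each KO library gave 5327 to 5395 higher and 5180 to 5246 lower, 1663 to 1703 and 1167 to 1190 by at least 2-fold. Leaving out each of the 16 libraries gave 8645 to 8913 genes with a difference from WT, and summing WT libraries 1 and 1b, and 10 and 10b, gave 8682. Of 3100 values of 207 named genes under 15 alternatives, 3083 stayed on their side of the threshold. No value changed sign where the main fit or the alternative called the gene. Signs were not compared where neither called it. The 6 genes with exceptions were Cdkn2a (7 settings, with adjusted p = 0.139 on total counts, by edgeR), Cebpa, Sec61b, Dlx5, Col5a2 and Plod2. The median over all genes moved by at most 0.03 under a scaling. With a mean of at least 1 CPM, fewer genes were tested, and cartilage and cytokine genes called higher numbered 6 and 4, against 10 and 8 in the main fit. Among list medians under the alternatives, 22 moved by at least 0.1 and 623 by less. Among list counts, 9 moved by more than 1.5-fold or to or from 0, and 1281 did not. Depth limits genes with few reads, such as Mx1 and Hif3a. No paired analysis was possible because the groups share no replicate numbers.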
